A study of Mus musculus with 8 samples.

Results

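Aminoacyl-tRNA synthetases, the enzymes that load each tRNA with its amino acid, were examined as a group of 35 genes in mouse primary hepatocytes (MPH) under acute ERS (endoplasmic reticulum stress). The group held 20 genes whose enzymes work in the cytosol or in both compartments and 15 genes whose enzymes work in mitochondria. The genes were listed by name, and each took the class of every H3K27ac region that overlapped one of its transcription start sites (TSS) in GENCODE M21. A TSS region was found for 32 of the 35 genes, among 12261 genes with a TSS region and 32196 regions in all.

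MPH from adult male C57Bl6 WT mice were exposed for 4 h to 1 µM thapsigargin, which blocks the calcium pump of the endoplasmic reticulum, or to vehicle (0.04% DMSO), in serum-free medium. Independent experiments were run 3 times, and each treatment had 3 H3K27ac libraries beside 1 input library. H3K27ac, the acetylation of histone H3 at lysine 27, marks active promoters and enhancers. Peaks were called on the pooled libraries and classed by the authors as H3K27ac UP, DOWN or unchanged, with mixed peaks left out. The lists give positions only. No depth, signal or value per library was at hand, so the size of a change and its error between experiments are unknown, and the intervals below cover counting error over genes alone.

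Cytosolic synthetases supply the ribosomes that translate nuclear mRNAs, and 8 of them are held together with scaffold proteins in the multisynthetase complex. Mitochondrial synthetases are also encoded in the nucleus and are imported to serve the mitochondrial ribosome, while Gars and Kars each encode the enzyme of both compartments. Within the unfolded protein response, the kinase PERK favours translation of the transcription factor ATF4, which is known to induce many cytosolic synthetase genes along with genes of amino acid synthesis and transport. ATF4 binds as a dimer with C/EBP proteins to a composite motif called CARE, written here as TGATGNAA and in its strictest form as TGATGCAA.

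Promoters that hold this motif are shown first, because matches of the looser motif lay at genes of all 3 classes. The stretches are RefSeq sequence of GRCm38.p6 (mm10) from 150 bases before to 30 bases after the annotated start, written 5′ to 3′ along the gene, with each match of TGATGNAA on either strand in capitals. Aars, Iars and Tars lay at UP regions, Gars at a DOWN region and Yars at an unchanged region.
Aars, chr8:111033692-111033871, plus strand: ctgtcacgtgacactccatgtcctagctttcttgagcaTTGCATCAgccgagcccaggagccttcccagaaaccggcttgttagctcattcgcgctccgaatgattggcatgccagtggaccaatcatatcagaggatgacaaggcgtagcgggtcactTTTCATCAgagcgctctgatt
Iars, chr13:49681980-49682159, plus strand: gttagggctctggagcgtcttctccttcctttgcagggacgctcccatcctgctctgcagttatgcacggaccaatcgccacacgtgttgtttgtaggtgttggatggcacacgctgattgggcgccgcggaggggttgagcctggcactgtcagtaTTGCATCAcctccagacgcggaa
Tars, chr15:11399629-11399808, minus strand: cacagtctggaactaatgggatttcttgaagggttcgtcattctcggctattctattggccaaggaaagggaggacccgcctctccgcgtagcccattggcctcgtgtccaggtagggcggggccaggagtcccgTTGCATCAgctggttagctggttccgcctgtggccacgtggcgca
Gars, chr6:55037851-55038030, plus strand: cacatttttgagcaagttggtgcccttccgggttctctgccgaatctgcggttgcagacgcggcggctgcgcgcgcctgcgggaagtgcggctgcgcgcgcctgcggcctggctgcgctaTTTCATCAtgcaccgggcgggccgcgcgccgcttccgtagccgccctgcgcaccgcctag
Yars, chr4:129189753-129189932, plus strand: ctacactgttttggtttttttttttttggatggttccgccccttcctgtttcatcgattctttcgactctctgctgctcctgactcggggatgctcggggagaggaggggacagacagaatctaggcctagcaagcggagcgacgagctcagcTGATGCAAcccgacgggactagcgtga
The Aars promoter held 2 matches, which began 112 bases before the start and at base 10 of the transcript. The match of Iars began at base 8 of the transcript, that of Tars 15 bases before the start, that of Gars 30 bases before and that of Yars at base 4 of the transcript. Among these, the match of Gars and the second match of Aars differ from the strict form.

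Cytosolic synthetase genes were at H3K27ac UP regions more often than genes in general. Of the 19 cytosolic genes with a TSS region, 15 had a TSS in an UP region (78.9%, 95% Wilson interval 56.7 to 91.5), compared with 21.4% of all genes with a TSS region (2620 genes, 20.7 to 22.1). The interval of the cytosolic genes lay wholly above the share of all genes. A single cytosolic gene, Gars, was at a DOWN region (5.26%, 0.935 to 24.6), beside 8.91% of all genes. Farsa, Kars and Yars were at unchanged regions alone, Iars had TSSs in both an UP and an unchanged region, and Vars had no TSS region.

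Mitochondrial synthetase genes held an intermediate position. An UP region covered a TSS of 6 of the 13 genes with a TSS region (46.2%, 23.2 to 70.9), namely Cars2, Ears2, Fars2, Hars2, Nars2 and Rars2. Aars2, Iars2, Lars2, Sars2, Tars2, Vars2 and Yars2 were at unchanged regions. None was at a DOWN region, which allows a share of up to 23.1% (3 counts of 13). The UP share of cytosolic genes exceeded that of mitochondrial genes by 32.8 percentage points, with a 95% Newcombe interval from −0.473 to 58.9. A difference between the groups was thus not resolved at this number of genes. The interval takes the groups as independent, although Hars and Hars2 lie in the same UP region. For all 35 genes together, 21 of the 32 with a TSS region were at UP (65.6%, 48.3 to 79.6). Members were listed by name and not by their class, but with earlier results of these data known, and no test of the list was run.

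**Figure D1:**
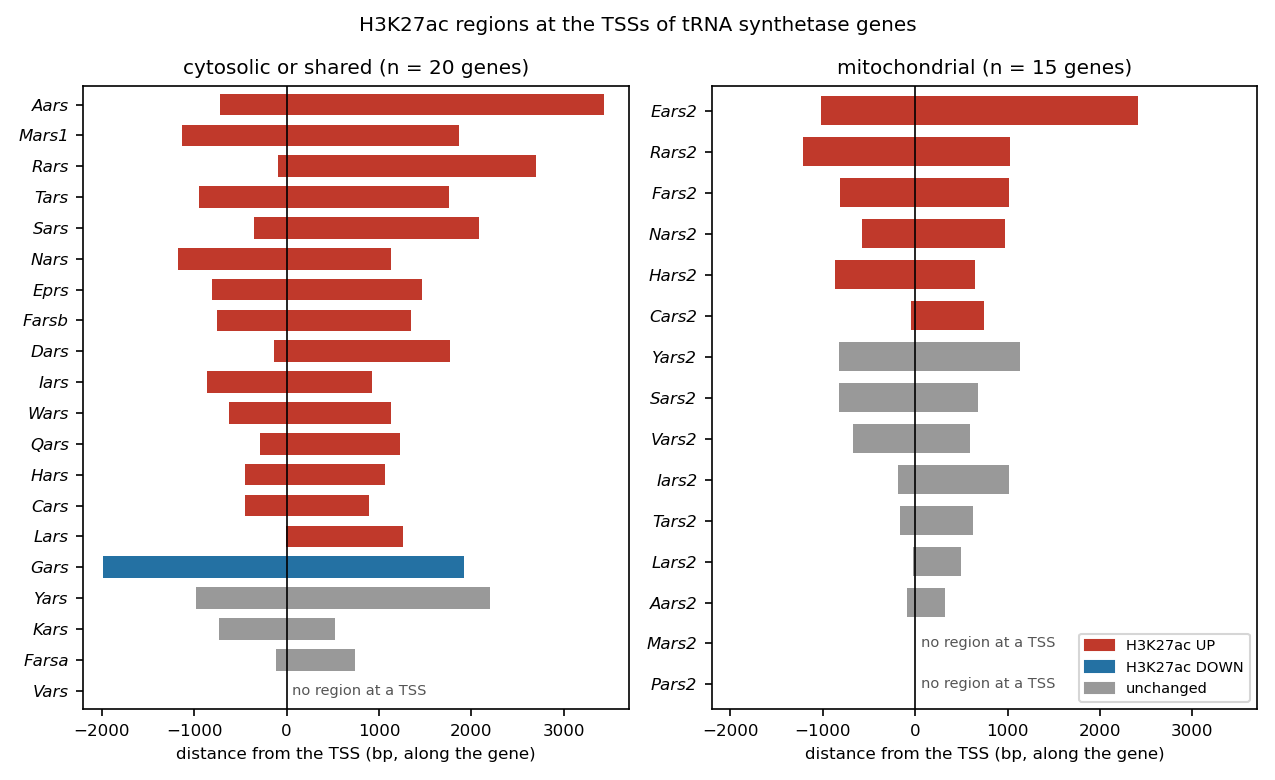
H3K27ac regions at the TSSs of the 20 cytosolic or shared and the 15 mitochondrial synthetase genes. Each bar spans the region that holds a TSS of a protein-coding transcript, in bp upstream (negative) and downstream of that TSS along the gene, and its colour gives the class; 15 cytosolic bars are UP and 1 is DOWN, while 6 mitochondrial bars are UP, and the second, internal regions of Iars and Aars2 are not drawn.

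Most enzyme genes of the multisynthetase complex were at UP regions. These enzymes are encoded by Dars, Eprs, Iars, Kars, Lars, Mars1, Qars and Rars, and 7 of these 8 genes were at UP regions, with Kars as the exception. Among enzymes outside the complex, 8 of 11 genes were at UP, and the difference was not tested. Among the complex genes, the UP region of Mars1 (methionine; Mars in GENCODE M21) was the widest, at chr10:127309917-127312917 with 3001 bp. That of Rars (arginine), chr11:35831813-35834604, spanned 2792 bp, of which 2693 bp lay downstream of the TSS. Eprs, which joins the glutamate and proline enzymes in 1 protein, had a region of 2265 bp at chr1:185362241-185364505. These regions reached into the transcribed part of the gene, as most regions of the group did.

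Dars (aspartate) had an UP region of 1905 bp at chr1:128415599-128417503, and Iars (isoleucine) one of 1791 bp at chr13:49681235-49683025. The second region of Iars, chr13:49706058-49707235, was unchanged, spanned 1178 bp and held the TSS of an internal transcript that is not annotated as protein-coding. Qars (glutamine) had an UP region of 1510 bp at chr9:108507419-108508928. The narrowest UP region of the cytosolic genes was that of Lars (leucine), chr18:42260939-42262204, at 1266 bp. Its upstream edge lay 10 bp from the TSS. Kars (lysine) was at an unchanged region of nearly the same width, 1255 bp, at chr8:112010806-112012060. That region also held the TSS of Terf2ip, a telomere protein gene.

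The free-standing cytosolic enzymes gave the widest and the narrowest regions. Aars (alanine) had the widest, an UP region of 4152 bp at chr8:111033185-111037336 that reached 3434 bp downstream of its protein-coding TSS. Gars (glycine), at chr6:55036018-55039922, was close behind with 3905 bp, but was DOWN. Its region was the only DOWN region at a TSS of the 35 genes, and it lay about evenly around the TSS, with 1989 bp upstream and 1915 bp downstream. Yars (tyrosine) followed with an unchanged region of 3185 bp at chr4:129188779-129191963, shared with S100pbp. Wide regions of the group thus fell into all 3 classes.

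The other UP regions of free-standing enzymes lay between 1343 and 2709 bp. Tars (threonine) was at chr15:11397911-11400619 with 2709 bp, Sars (serine) at chr3:108443127-108445563 with 2437 bp, and Nars (asparagine) at chr18:64515527-64517825 with 2299 bp. Phenylalanyl-tRNA synthetase is built from α and β chains, and its genes fell into different classes. Farsb, the β chain, was at an UP region of 2101 bp (chr1:78487550-78489650). Farsa, the α chain, was at the narrowest cytosolic region, 859 bp and unchanged (chr8:84856872-84857730). Wars (tryptophan) had an UP region of 1749 bp at chr12:108893046-108894794, shared with Wdr25. Hars (histidine) had one of 1509 bp at chr18:36782143-36783651, and Cars (cysteine) one of 1343 bp at chr7:143599202-143600544. Vars (valine; gene at chr17:35000987-35016322) had its nearest region, unchanged, 18552 bp from a TSS. The authors left out peaks with mixed UP and DOWN bins, so a gene without a region may lie at no peak or at a discarded one, and these cannot be told apart.

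The mitochondrial UP regions were mostly shared promoters. Ears2 (glutamate) had the widest region of its group, 3424 bp at chr7:122064855-122068278, together with Ubfd1. Rars2 (arginine) shared 2239 bp at chr4:34613746-34615984 with Orc3, a subunit of the origin recognition complex. Fars2 (phenylalanine) shared 1834 bp at chr13:36116597-36118430 with Lyrm4, which acts in iron-sulphur cluster assembly. Hars2 and Hars, which are transcribed away from each other, share the same UP region and are therefore not separate observations. Nars2 (asparagine), with 1547 bp at chr7:96950933-96952479, and Cars2 (cysteine), with 784 bp at chr8:11550044-11550827, were the 2 UP genes whose region held no other protein-coding TSS.

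Class was also counted by whether a region held the TSS of another protein-coding gene. Of the mitochondrial genes, 4 of 5 with a shared region were at UP, the exception being Sars2, whose unchanged region of 1504 bp (chr7:28741176-28742679) also serves Mrps12, a mitochondrial ribosomal protein gene. Of the 8 alone, 2 were at UP. Of the cytosolic genes, 2 of 4 with a shared region and 13 of 15 alone were at UP. In the whole series 18.7% of 8546 regions with 1 protein-coding gene and 25% of 1158 regions with more were UP. With shared regions left out, the UP shares were 86.7% for cytosolic and 25% for mitochondrial genes, a difference of 61.7 points (19.7 to 81.9). The part of the partner genes in the class of a shared region was not tested.

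The remaining mitochondrial genes had unchanged regions or none. The narrowest region of a gene with a single region was that of Lars2 (leucine), 514 bp at chr9:123366904-123367417. Aars2 (alanine) had 2 unchanged regions, of 409 bp at chr17:45506754-45507162 and of 724 bp at chr17:45515202-45515925. Mars2 (methionine; chr1:55237177-55248470) and Pars2 (proline; chr4:106651069-106655282) had no TSS region, but unchanged regions of 348 and 476 bp began 161 and 151 bp from a TSS. The other unchanged regions, of Iars2, Tars2, Vars2 and Yars2, spanned 791 to 1966 bp.

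Genes were also paired by amino acid, where each compartment has its own gene. Among 16 pairs of a cytosolic and a mitochondrial gene, both were at UP in 6, the cytosolic gene alone in 7, the mitochondrial gene alone in 1 and neither in 2. Alanine, isoleucine, leucine, methionine, proline, serine and threonine made up the pairs with the cytosolic gene alone, and in those of methionine and proline the mitochondrial gene had no TSS region to class. The reverse pair was Farsa and Fars2, and the pairs with neither were those of tyrosine and valine. Eprs and Fars2 each entered 2 pairs. Hars and Hars2, counted among the pairs with both at UP, share the same region, so their agreement was fixed in advance. By the fold of the catalytic domain, 8 of 9 cytosolic class I enzymes and 7 of 10 of class II were at UP. Eprs, which joins the glutamate and proline enzymes, was counted in class I alone. These splits were made after the classes of the members had been seen and are given as counts only.

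Region width was compared as well, since the classes differed in width across the whole series. The widest TSS region of a gene had a median of 2101 bp in cytosolic genes (859 to 4152), 1504 bp in mitochondrial genes (514 to 3424) and 1850 bp in all genes (210 to 37515). Across deciles of this measure, the UP share of all genes ran from 9.28% in the narrowest decile to 29.5% in the ninth, and the DOWN share from 1.30% to 31.7% in the widest. The UP share of the cytosolic synthetases was thus not reached in any decile of all genes.

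Weighted to the widths of the members, the UP share of all genes was 23.0% for the cytosolic and 17.8% for the mitochondrial genes. The observed 78.9% and 46.2% both stood above these values, and both Wilson intervals did too. With shared regions left out, the mitochondrial interval (7.15 to 59.1) held the unweighted share of all genes, 20%. For DOWN, the weighted shares were 7.32% and 3.76%, within the intervals of the 2 groups. All 12 cytosolic genes in the fourth to seventh deciles, 1277 to 2825 bp, were at UP, beside 4 of 6 mitochondrial genes there, while 3 of the 7 cytosolic genes in the other deciles were. This range was chosen after the classes had been seen. Farsa and Kars stood in narrower deciles and Yars in a wider one.

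**Figure D2:**
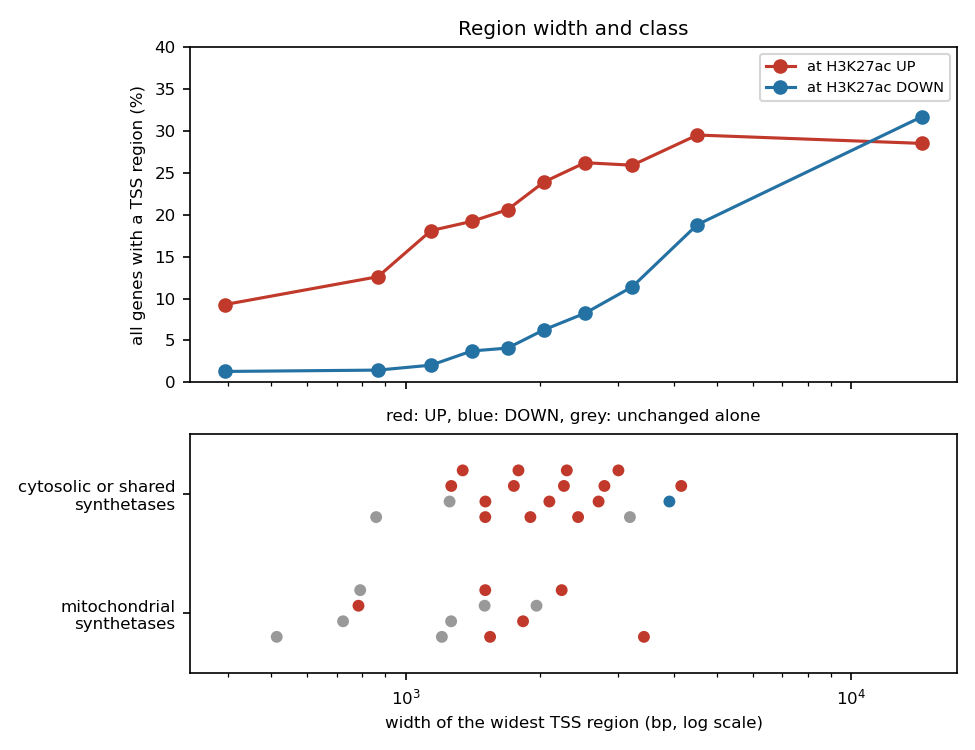
Class and width of TSS regions. Upper panel: share of all genes (%) at UP (red) and DOWN (blue) regions in 10 width deciles (widest TSS region per gene), placed at the geometric mean of each decile's limits in bp on a log axis; lower panel: each of the 32 members at its own width, coloured by class (vertical spread within a group is for legibility). The UP share of all genes stays at or under 29.5% in every decile, while 15 of the 19 cytosolic members and 6 of the 13 mitochondrial ones are red.

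Ribosomal protein genes, which are also broadly expressed and serve translation, were set beside the synthetases after the members' classes were known. Of 76 cytosolic ribosomal protein genes, 16 were at UP (21.1%) and none at DOWN, for which 3 counts would be 3.95% and the Wilson upper limit is 4.81%. Of 77 mitochondrial ones, 14 were at UP (18.2%) and 3 at DOWN. These UP shares lay near the width-weighted shares of all genes, 23.3% and 16.9%. For DOWN, the weighted shares were 8.57% and 3.83%, and the first lay above the upper limit of the cytosolic list. Of other genes of tRNA charging, 2 of 12 were at UP (16.7%, 4.7 to 44.8). This wide interval held the 21.4% of all genes and also overlapped that of the mitochondrial synthetases. The UP genes were Wars2, the mitochondrial tryptophan enzyme, which is not among the 35, and Trnt1, which adds the CCA end to tRNAs. The scaffold genes Aimp1, Aimp2 and Eef1e1, the amidotransferase genes Gatb, Gatc and Qrsl1, the selenocysteine genes Pstk and Sepsecs, and the editing genes Aarsd1 and Prorsd1 were at unchanged regions, and Mtfmt and Dtd1 had none.

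**Figure D3:**
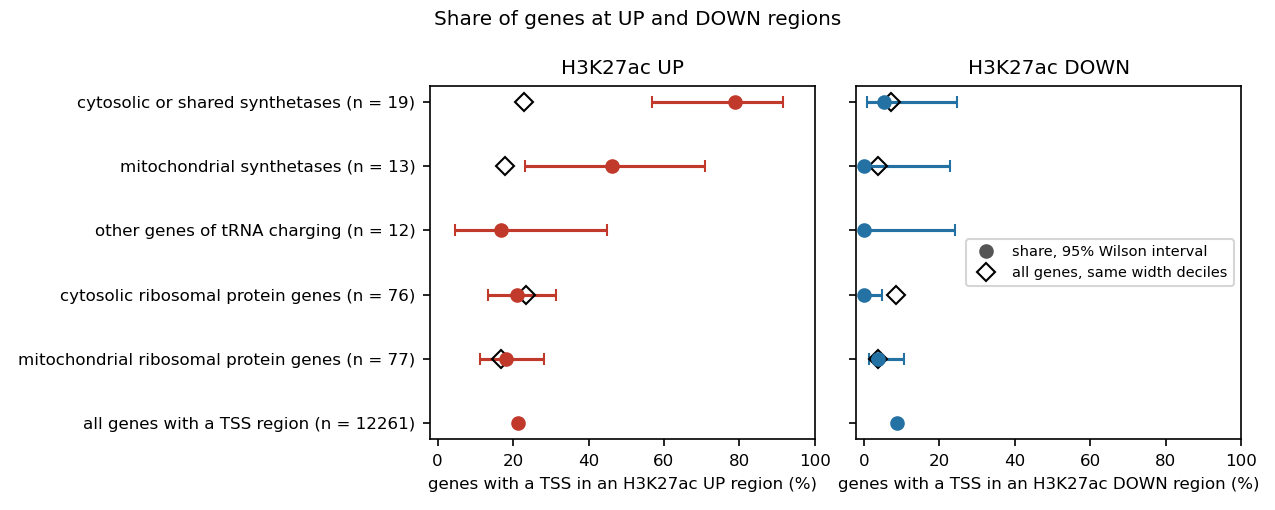
Share of genes (%) with a TSS in an H3K27ac UP (left) or DOWN (right) region in 6 gene lists. Filled points with bars give the share of genes with a TSS region and its 95% Wilson interval, and open diamonds the share of all genes at the same region widths. For UP, cytosolic synthetases stand at 78.9% and mitochondrial ones at 46.2%, while both ribosomal protein lists lie beside their diamonds. For DOWN, the cytosolic ribosomal list (0 of 76 genes) lies below its diamond at 8.57%.

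ATF4-type motifs were then counted in the sequences. The RefSeq promoter table held 26 of the 35 genes, 13 from each group, and did not hold Cars, Hars, Lars, Nars, Rars, Vars, Wars, Hars2 and Pars2. From 250 bases before to 50 after the start, TGATGNAA occurred in 5 of 13 cytosolic promoters (38.5%, 17.7 to 64.5) and in 4.51% of the 27025 genes of the table. It occurred in none of the 13 mitochondrial promoters, which allows a share of up to 23.1%. TGATGCAA, which is counted within TGATGNAA, occurred in 4 cytosolic promoters and 1.03% of all genes. The presence of a match did not separate the classes, since 3 of 14 members at UP and 2 of 12 others had one. TGACGTGG (UPRE), TGACGTCA (CRE) and the ERSE motif (CCAAT and CCACG with 9 bases between), searched on both strands, had no match in the promoters of the 26 members. They occurred in 0.714%, 2.03% and 0.137% of all genes. The absence of a match in 13 promoters of a group allows a share of up to 23.1%, so it does not set the members apart.

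Whole TSS regions were searched for the 13 cytosolic genes of the table. Counts for members were kept to genes of that table, although the genome sequence also covers the regions of the others. Of the cytosolic genes left out, Cars, Hars, Lars, Nars, Rars and Wars were at UP regions. TGATGCAA occurred in 9 of the 14 TSS regions of the 13 genes (64.3%). It occurred in 6.24% of all 10642 TSS regions and 12.2% of the 2047 that were UP. Per kb, this was 0.279 matches in the cytosolic regions, 0.0274 in all TSS regions and 0.0455 in UP regions. No match lay in the 13 regions of mitochondrial genes. The 9 sites are shown with 6 bases on each side, read in the direction of the motif on the strand given (GRCm38.p6), with the motif in capitals. The first 7 genes were at UP regions, Gars at a DOWN region and Yars at an unchanged one.
Aars, chr8:111033730-111033737, minus strand: ctcggcTGATGCAAtgctca
Eprs, chr1:185363270-185363277, minus strand: acgcgcTGATGCAAcccgcg
Farsb, chr1:78488582-78488589, plus strand: cgctgaTGATGCAAcggagc
Iars, chr13:49682137-49682144, minus strand: tggaggTGATGCAAtactga
Mars1, chr10:127311649-127311656, plus strand: ccacgcTGATGCAAtcggaa
Sars, chr3:108444201-108444208, minus strand: gtagtcTGATGCAAtaggtc
Tars, chr15:11399666-11399673, plus strand: accagcTGATGCAAcgggac
Gars, chr6:55038950-55038957, plus strand: ggcgccTGATGCAAtcgttt
Yars, chr4:129189906-129189913, plus strand: ctcagcTGATGCAAcccgac
Each of these genes had a single strict site. The site of Tars lay 8 bp upstream of the GENCODE TSS used here, and that of Aars 172 bp upstream, within an exon of another Aars transcript. Those of Iars, Mars1 and Yars lay 37, 130 and 146 bp downstream in an exon. Those of Eprs, Farsb, Gars and Sars lay 226, 308, 943 and 1001 bp downstream in an intron. Of the 9 sites, 7 thus lay past the TSS.

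Among the cytosolic regions searched, 7 of 9 UP regions and 2 of the 5 others held the strict motif. The 5 others include the second, internal region of Iars, a gene already counted at UP. Dars and Qars were at UP regions without the strict motif. Width differed as well: cytosolic regions with the strict motif spanned 1791 to 4152 bp, and those without it 859 to 1905 bp. The link of the motif to class apart from width was not tested. Looser matches alone occurred in the UP regions of Ears2 and Nars2, and TGATGNAA in all was found in 2 of 13 mitochondrial regions and 22.2% of all TSS regions. TGACGTGG occurred in 1 of the 13 mitochondrial regions and 0 of the 14 cytosolic ones, beside 3.97% of all TSS regions. A match is a string of letters and not evidence of binding.

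**Figure D4:**
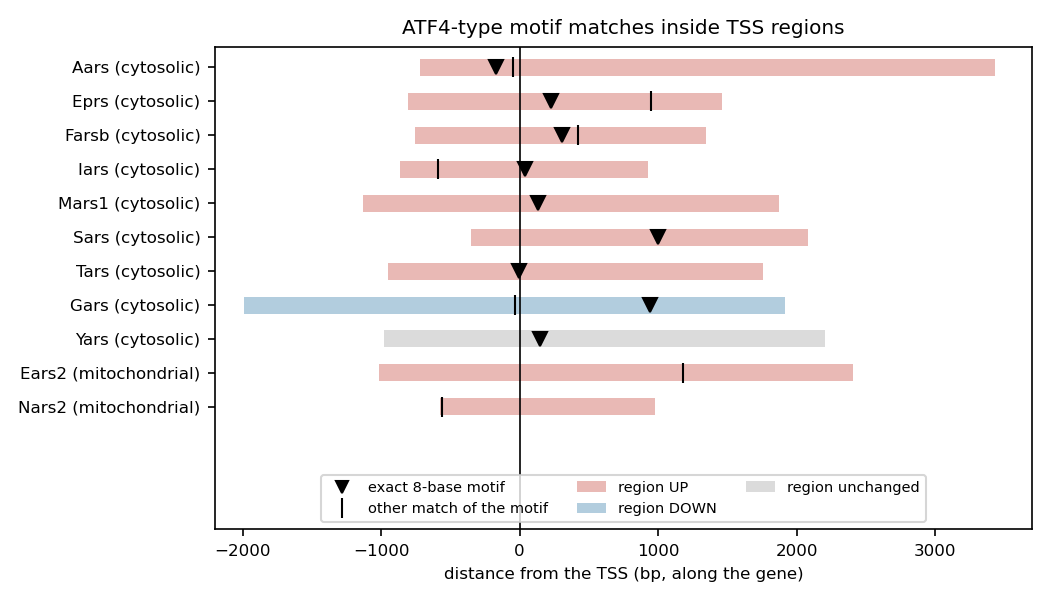
Positions of ATF4-type motif matches inside the TSS regions of the 11 members that had one. Bars give the region in bp from the TSS along the gene, coloured by class; triangles mark the strict motif, with 1 in each of 9 cytosolic regions, and ticks the other matches of the looser motif, which are the only matches at Ears2 and Nars2.

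Regions without a TSS within 50 kb of the members were mixed. Of 35 such regions near cytosolic genes, 8 were UP (22.9%) and 6 DOWN (17.1%). Of 42 near mitochondrial genes, 13 were UP (31.0%) and 7 DOWN (16.7%). In the whole series, 16.1% of 21554 regions without a TSS were UP and 11.4% DOWN. These regions may serve other genes, and several can belong to 1 locus.

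Within gene bodies, Dars held an UP region of 10521 bp (chr1:128390830-128401350). Eprs and Sars each held 1 UP region, at chr1:185375914-185377257 and chr3:108424842-108425421. Cars and Yars each held 1 DOWN region, at chr7:143587942-143588436 and chr4:129206317-129207405. Of the mitochondrial genes, Cars2 held a DOWN region of 1391 bp, and Fars2, a long gene, held 3 UP and 2 DOWN regions. Changed regions within the gene were thus of another class than the TSS region at Cars, Yars and Cars2, and in part at Fars2. Unchanged regions within genes are not listed here.

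Hepatocyte genes served as a check of the material. All 4 examined (Alb, Ttr, Apoa1 and Hnf4a) had a TSS region, the last 2 of them DOWN. Of 5 genes of other liver cells, Ptprc, Pecam1, Krt19 and Col1a1 had none and Cd68, a macrophage gene, had an unchanged one.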

How the data were processed

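H3K27ac ChIP-seq of MPH gave 6 H3K27ac and 2 input libraries. The authors called broad peaks with MACS2 on pooled libraries, discarded bins at input level, normalized by loess, tested bins with csaw in a paired model and combined those of each peak. Regions with an FDR above 0.05 were unchanged. The others were UP or DOWN by the ratio of UP to DOWN bins, and those with an intermediate ratio got no class. The deposited values are start and end positions (bp, mm10), with no depth, count or p-value, so precision per library is unknown.

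A region was tied to a gene where it overlapped the TSS of any GENCODE M21 transcript (the authors used another release), and a gene counted in each class it touched. Distances are from the most upstream protein-coding TSS in the region. Shares have 95% Wilson intervals and their difference a Newcombe interval. Members and lists were chosen with earlier results of these data known, and the ribosomal lists and the splits by complex, fold and amino acid after the members' classes were seen. Named with coordinates were members at UP or DOWN regions, with several, shared or no regions, and with the widest or narrowest. Promoters were printed for members at UP with a motif and up to 3 others. Alternatives concerned TSS assignment, region width, shared regions, background and motif letters. A further gene of tRNA charging is not reported here. Counting functions were tested on simulated data. Tools were pandas 2.3.3, scipy 1.17.1, numpy 2.4.6 and matplotlib 3.10.9 under Python 3.11.15.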

Additional observations from a re-analysis of the deposited data

How the results depend on the processing

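No paired analysis was possible because the lists give no values for single libraries. Leaving out each replicate in turn could not be run either. The UP share of cytosolic genes stayed between 78.6% and 88.2% and that of mitochondrial genes between 25% and 62.5% over the alternatives. Their difference ranged from 16.1 to 61.7 points, and its interval excluded 0 with a TSS within 1 kb (38.9) or 10 kb (44.2), without Gars and Kars (42.1), and with regions of 1 protein-coding gene (61.7), but not under the others. For a single member, Farsa, the UP call changed, with a TSS within 10 kb. The Wilson interval of the mitochondrial UP share held the share of all genes with a TSS within 1 kb (19.8 to 64.3, beside 21%). The same was found with a TSS within 10 kb (19.8 to 64.3, beside 26.9%). It was also found with regions of 1 protein-coding gene (7.15 to 59.1, beside 20%), but not under the others.

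For all genes, the UP and DOWN shares were 26.9% and 14.1% with a TSS within 10 kb, 24.3% and 11.9% where a region had to cover both flanks of 500 bp around a TSS, and 23.7% and 10.6% for regions of at least 1 kb. The UP share was 20.4% with each gene counted once and 20% for regions of 1 protein-coding gene. The DOWN share was 7.66% for TSSs of protein-coding transcripts and 8.31% for protein-coding genes. These settings keep other genes and regions by construction. Without Gars and Kars, the DOWN share of cytosolic genes was 0 by construction, as Gars was the only such gene. With a TSS within 10 kb, the DOWN share was 15.8% for cytosolic genes (3 of 19) and 6.67% for mitochondrial genes (1 of 15). For all genes, TGATGNAA in 4.51% of promoters became 1.03% with TGATGCAA, a stricter motif, and 22.2% in whole TSS regions, which are longer. Width quintiles or 20 strata moved the weighted shares by less than the members' intervals.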
